A study of Rattus norvegicus with 12 samples.

Results

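Macrophage and leukocyte genes were followed as a set of 37 named genes among the 32545 genes listed for neonatal rat ventricular myocardium, and all 37 were found by their gene symbols. The set held 9 genes of macrophages in general, 5 of resident macrophages, 10 shared by many leukocytes, 4 of complement, 1 of antigen presentation, 4 of cell recruitment, 2 of lymphocytes and 2 of neutrophils. Mean expression reached the minimum for testing, 0.5 FPKM (fragments scaled to gene length and to library size), in 34 of the 37 genes and in 13910 genes in all. Cd3e, Ccr2 and Fcgr2b did not reach it.

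The samples came from left ventricular (LV) and right ventricular (RV) free walls of Sprague-Dawley rats. An aorto-caval fistula, which sends arterial blood into the venous return and so imposes volume overload (VO), or a sham operation was made on postnatal day 1 (P1), and tissue was taken on P7. The 4 groups were sham LV, VO LV, sham RV and VO RV, each with 3 poly(A) RNA-seq libraries, and all rats had anaesthesia and surgery. No transgene or mutation was involved, and the labels do not say whether animals were pooled or whether LV and RV came from 1 animal, so that p-values measure only the spread between libraries.

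Cardiac macrophages are seeded before birth and are later joined by cells from blood monocytes. They clear dying cells and take part in the remodelling of the growing heart. The receptor tyrosine kinase encoded by Csf1r maintains them, the transcription factor PU.1 (Spi1) sets their identity, and the 3 chains of C1q, which starts the classical complement pathway, are made largely by tissue macrophages. In whole myocardium, fewer cells of a type and less RNA per cell cannot be told apart.

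Levels differed widely among the members. Cd74, the invariant chain of class II antigen presentation, was the highest, with a mean over the 12 libraries of 114 FPKM. In sham LV replicates 1 to 3 its levels were 108, 94.2 and 129 FPKM, in VO LV 129, 132 and 124, in sham RV 73.0, 107 and 132, and in VO RV 132, 96.1 and 106. The 4 groups overlapped, and sham RV had the widest spread. Next were Lyz2, lysozyme, at a mean of 60.1 FPKM and Cxcl12, a chemokine that stromal and endothelial cells also make, at 30.5 FPKM. Csf1r averaged 9.25 FPKM, Cd68, a lysosomal glycoprotein of macrophages, 4.25 FPKM and Adgre1, which encodes the F4/80 antigen, 4.01 FPKM, so the general macrophage markers were detected in all libraries. Among resident macrophage genes, mean levels were 4.09 FPKM for the mannose receptor Mrc1, 3.96 for the folate receptor Folr2, 2.60 for Trem2, 1.52 for the fractalkine receptor Cx3cr1 and 0.974 for the haemoglobin scavenger receptor Cd163.

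Lyz2 measured 79.4, 77.9 and 66.2 FPKM in sham LV, 51.8, 73.7 and 45.4 in VO LV, 45.1, 60.4 and 42.7 in sham RV and 47.7, 58.1 and 73.2 in VO RV, so sham LV stood above sham RV while the VO groups overlapped with both. Trem2, a lipid-sensing receptor, had the widest spread within a group relative to its mean among the tested members, with 0.987, 5.93 and 2.94 FPKM in VO RV against 1.52 to 3.14 FPKM in the other 9 libraries. Mrc1 at 3.11, 7.11 and 4.07 FPKM and Cd163 at 0.709, 1.81 and 1.16 FPKM likewise had their lowest VO RV level in replicate 1 and their highest of all 12 libraries in replicate 2. Among the shared leukocyte genes, the Fc receptor chain Fcer1g averaged 14.4 FPKM, Tyrobp 13.9, the tetraspanin Cd53 2.82, and the integrin chains Itgb2 and Itgam 2.83 and 0.582. The growth factor Csf1 averaged 2.84 FPKM, the monocyte chemokine Ccl2 3.04, and C3, the central complement protein, 1.21.

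The lowest members were near the limit of detection. Cd3e, a chain of the T cell receptor complex, ranged from 0 in VO LV replicate 3 to 0.304 FPKM in sham LV replicate 1, and its 0 reads allow up to 0.117 FPKM (3 reads, counting error only). Fcgr2b, an inhibitory Fc receptor, ranged from 0.0190 to 0.164 FPKM. Ccr2, the receptor that draws monocytes into tissue, had 1.36 FPKM (6 reads) in sham LV replicate 1 and 0 reads in the other 11 libraries, which allows between 0.585 and 0.757 FPKM there. The Ccr2 row covered a gene model of only 286 bases, so a low monocyte contribution cannot be read from it. Cd4, which rat macrophages carry as well as T cells, averaged 6.76 FPKM.

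Reads recovered from the values numbered 14121713 to 16871371 per library. Cardiomyocyte genes were high in all 12 libraries, with Myh6 between 1544 and 2787 FPKM, so the myocardial label held. VO RV replicate 2 stood apart, with summed atrial markers at 4559 FPKM against 250 to 311 in the other 2 VO RV libraries and fibroblast markers at 4935 FPKM against 2533 to 3045. Its summed ventricular cardiomyocyte markers were at 14765 FPKM against 20195 to 20495 in those 2 libraries. Sham RV replicate 1 had the highest atrial (1065 FPKM) and fibroblast (3640 FPKM) sums of its group. Its atrial sum lay within the range of the LV libraries, 706 to 1156 FPKM in sham LV and 893 to 1729 in VO LV. A summed level of Y-linked genes over 10 FPKM was seen in 2 of 3 sham LV, 0 of 3 VO LV, 2 of 3 sham RV and 1 of 3 VO RV libraries.

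The libraries also differed in their leukocyte genes as a set. The median log2 ratio of the 34 tested members to their own means was 0.15, 0.00 and 0.18 in sham LV replicates 1 to 3, and -0.14, -0.10 and -0.25 in sham RV. It was -0.11, 0.02 and -0.21 in VO LV, and -0.19, 0.37 and 0.23 in VO RV. VO RV was therefore the most divided group. Its replicate 1 lay near the sham RV libraries, while replicate 2 held the highest level of all 12 libraries for 13 members and replicate 3 for 6.

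**Figure D1:**
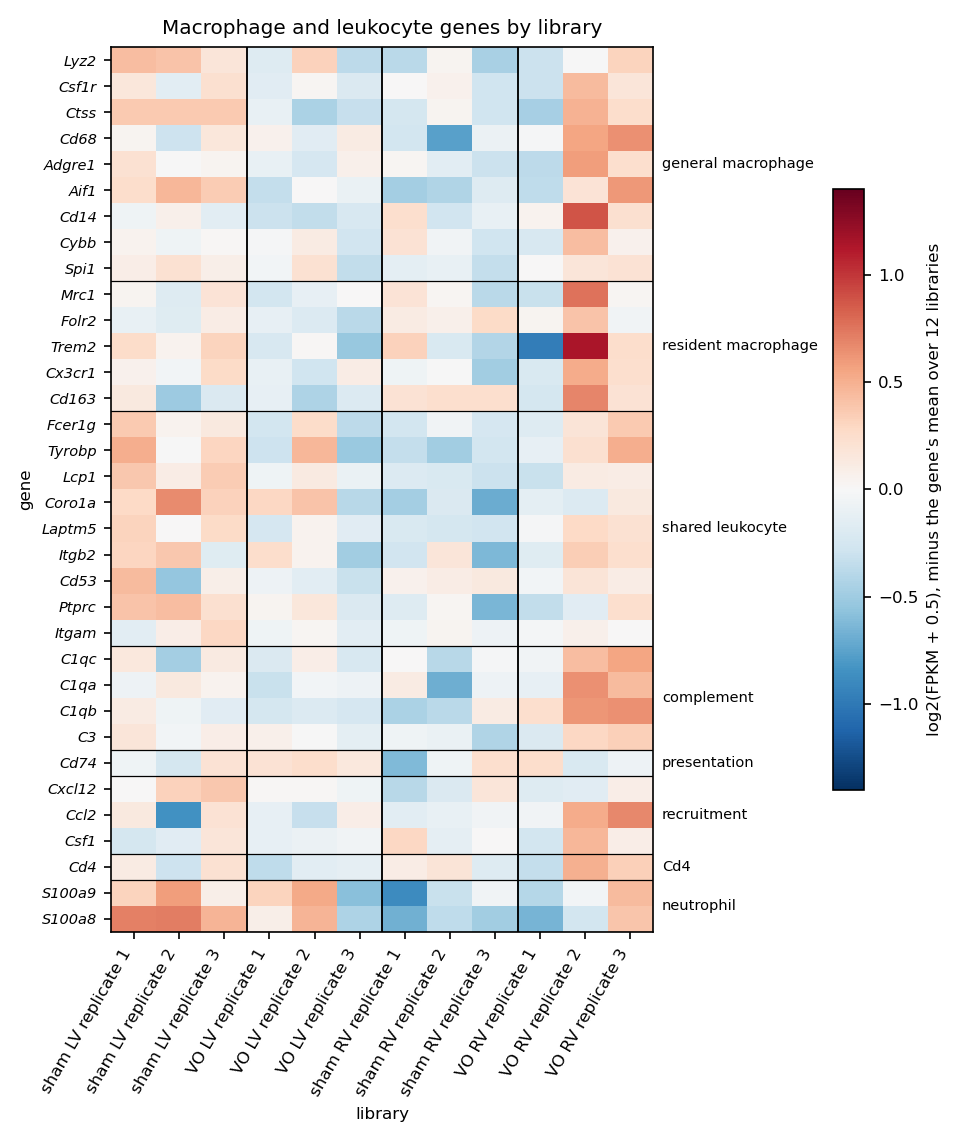
Level of each tested member (rows, ordered by role) in each of the 12 libraries (columns, by group), as the log2 ratio to the gene's mean over all libraries. Sham LV is mostly above the mean, sham RV mostly below, and VO RV replicates 2 and 3 differ from replicate 1.

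Sham LV was compared with sham RV to ask how the normal neonatal ventricles differ. S100a8, Coro1a and Lcp1 were higher in the LV, and 28 of 34 tested members had a log2 fold change above 0, against 51.6% of all genes. Shares of members are description here and below, because the members were chosen with earlier results of these data known. A call required a Benjamini-Hochberg adjusted p under 0.05 in limma over all 13910 genes and a fold change over 1.3. S100a8, Coro1a and Lcp1 were the 3 members called, all higher, where 3.86% of all genes were called in either direction with 1.51% higher and 2.35% lower. The median log2 fold change of the members was 0.27, beside 0.01 over all genes. The calls were lost for all 3 in 8 of 12 fits that left out 1 library, and also without sham RV replicate 1 and VO RV replicate 2 together. They were lost too with the replicate number as a fixed block or same-numbered LV and RV as a random block.

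S100a8, which with S100a9 forms the calcium-binding protein calprotectin of neutrophils and monocytes, had levels of 15.0, 15.1 and 12.6 FPKM in sham LV and 5.46, 6.91 and 6.25 FPKM in sham RV. The groups did not overlap, and the means were 14.2 ± 1.38 and 6.21 ± 0.728 FPKM (SD, n = 3). The table lists it (ENSRNOG00000011557) on chromosome 2 from 190073815 to 190074354. The log2 fold change was 1.14 (SE 0.26, limma adjusted p = 0.0418). Its neighbour S100a9, 23199 bases away on chromosome 2, was at 12.4, 15.2 and 10.5 FPKM in sham LV and 5.16, 7.87 and 9.56 in sham RV, with a log2 fold change of 0.74 (SE 0.31) that did not pass (adjusted p = 0.163).

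Coro1a, an actin-binding protein of haematopoietic cells, measured 9.88, 13.1 and 10.2 FPKM in sham LV and 5.68, 6.96 and 4.80 FPKM in sham RV. Every LV library lay above every RV library, with a log2 fold change of 0.88 (SE 0.21, limma adjusted p = 0.0442). Lcp1, the actin-bundling plastin of leukocytes, measured 13, 10.7 and 12.8 FPKM in sham LV against 8.61, 8.46 and 7.92 in sham RV. It too was separated, with a log2 fold change of 0.52 (SE 0.13, limma adjusted p = 0.0487). With 3 libraries a group, the exact permutation test of a single gene cannot go below a two-sided p of 0.10, and all 3 genes gave that value. In the VO groups these genes overlapped. Levels in VO RV were 5.52, 7.39 and 11.9 FPKM for S100a8, 7.31, 6.97 and 8.90 for Coro1a, and 7.86, 10.8 and 10.7 for Lcp1, and Coro1a in VO LV was at 9.98, 10.8 and 6.05 FPKM.

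Laptm5, a lysosomal membrane protein of haematopoietic cells, measured 8.46, 6.76 and 8.18 FPKM in sham LV and 5.73, 5.56 and 5.45 in sham RV. The groups were apart, but the log2 fold change of 0.44 (SE 0.12) missed the threshold (limma adjusted p = 0.0582). Without adjustment, at p under 0.05 and a fold change over 1.3, 10 members were higher and 0 lower, where the background was 8.19% and 9.63% of genes. Besides the 3 called and Laptm5, these were Aif1 at 0.72, Tyrobp at 0.63, Ptprc, the leukocyte common antigen CD45, at 0.61, Lyz2 at 0.60 and Ctss at 0.53 on the log2 scale, together with S100a9. The sham groups did not overlap for 13 members higher in the LV, where 15.6% of genes were separated in this way. Cd163 was the 1 member separated with lower levels in the LV, at 1.08, 0.507 and 0.745 FPKM against 1.15, 1.19 and 1.18, where 16.6% of genes were separated downwards.

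The roles differed in size. Shared leukocyte genes had a median log2 fold change of 0.44 (8 of 9 above 0), general macrophage genes of 0.32 (9 of 9) and complement genes of 0.22 (4 of 4). Resident macrophage genes had a median of 0.07 (3 of 5 above 0), and recruitment genes of -0.07 (1 of 3). Cd14, Cd4, Cybb and C1qc lay within 0.07 of no change, and none of these genes was called. The medians by role were not tested.

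Other markers moved with the same contrast. Summed erythroid markers were between 13332 and 17264 FPKM in sham LV and between 6750 and 11319 in sham RV, and summed endothelial markers were between 429 and 484 FPKM and between 300 and 336. The endothelial receptors Tie1, at 0.54 (limma adjusted p = 0.0332), and Kdr, at 0.42 (limma adjusted p = 0.0432), were called higher in the LV, and Ryr2 lower, at -0.94 (limma adjusted p = 0.0356). Neutrophil markers summed to between 36.0 and 46.0 FPKM in sham LV and between 19.3 and 29.9 in sham RV, with 3 of 16 list genes at testable levels. Sums were also higher in sham LV without overlap for mast cell markers (17.6 to 23.5 against 9.87 to 17.1 FPKM), dendritic cell and class II markers (22.1 to 26.5 against 14.7 to 18.9), B cell markers (4.43 to 8.90 against 2.38 to 2.83) and natural killer cell markers (1.88 to 3.90 against 1.03 to 1.46). Of the 7 mast cell genes tested, 5 were higher without adjustment, where 8.19% of all genes were, and 0 were called, with a median log2 fold change of 0.99. The granule genes Mpo and Elane were listed at 0 in 11 of 12 libraries each, and Camp was between 0.189 and 2.16 FPKM. With the erythroid markers as a covariate, an alternative added after seeing the data, 0 members and 0 genes in all were called, 11 members were higher without adjustment, where 4.17% of all genes were, and the median was 0.42. The part of these cells in the result was not tested further.

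**Figure D2:**
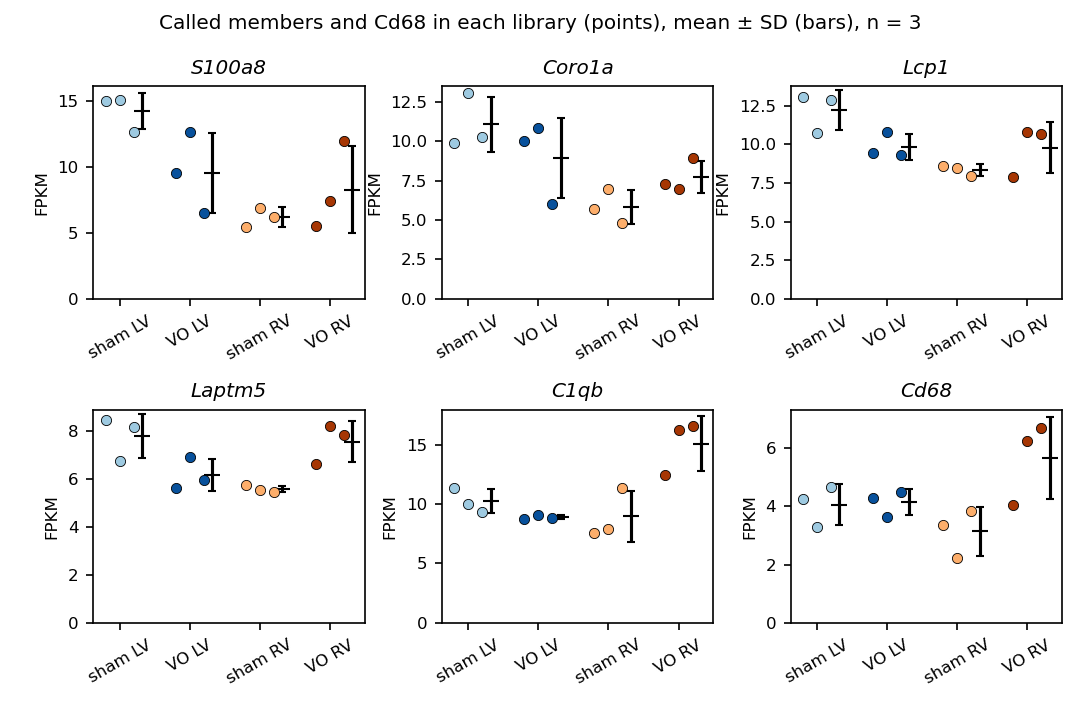
FPKM of the 5 called members and Cd68 in each library (points) by group, with the group mean and SD beside them (bars, n = 3). S100a8, Coro1a and Lcp1 are separated between sham LV and sham RV, and C1qb is separated between VO RV and both sham RV and VO LV.

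VO LV was compared with sham LV for the response of the LV. In limma 0 of 34 members were called, where 0.0935% of all genes were, 0.0719% higher and 0.0216% lower. Without adjustment 0 members were higher and 3 were lower, where 9.27% and 6.44% of all genes were. The count of 3 became 7 without VO LV replicate 2 (7.15% of all genes lower) and 1 without VO LV replicate 1 (6.05%) or replicate 3 (3.55%). Ctss, the lysosomal protease cathepsin S, had the smallest p. It measured 7.75, 7.72 and 7.73 FPKM in sham LV and 5.43, 4.20 and 4.62 in VO LV. The groups did not overlap, and the log2 fold change was -0.65 (SE 0.20, limma adjusted p = 0.101).

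Aif1, the calcium-binding protein IBA1 of macrophages, measured 4.16, 4.94 and 4.53 FPKM in sham LV and 2.61, 3.45 and 3.19 in VO LV, with a log2 fold change of -0.49 (SE 0.21, limma adjusted p = 0.187). S100a8 measured 9.51, 12.6 and 6.53 FPKM in VO LV, a log2 fold change of -0.59 from sham LV (SE 0.26, limma adjusted p = 0.199). For both, the groups were separated, S100a8 by a margin too small to show at this rounding. Laptm5 at -0.31 (VO LV 5.61, 6.91 and 5.97 FPKM, limma adjusted p = 0.152) and Lcp1 at -0.29 (9.44, 10.8 and 9.28 FPKM, adjusted p = 0.198) overlapped with sham LV.

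Of the 34 members, 3 had a log2 fold change above 0 in the LV, Cd74 at 0.23, Ccl2 at 0.05 and Cd68 at 0.03, where 47.2% of all genes did. The median was -0.19, beside -0.02 over all genes. Separation towards lower levels was seen for 7 members, where the background was 15.7%. By role, the medians were -0.31 for shared leukocyte genes, -0.19 for general macrophage genes, -0.17 for resident macrophage genes and -0.14 for complement genes. Fitted with the Y-linked level as a covariate, 1 member in place of 3 was lower without adjustment, where 3.39% of all genes in place of 6.44% were, and the median was -0.16. Markers of other cells moved in the same contrast. Summed endothelial markers were between 429 and 484 FPKM in sham LV and between 339 and 384 in VO LV, and fibroblast markers between 2594 and 2789 and between 2063 and 2543, both without overlap. B cell markers were between 4.43 and 8.90 FPKM in sham LV and between 3.21 and 4.01 in VO LV, also without overlap. Of 8 ventricular cardiomyocyte markers 3 were higher without adjustment, with a median of 0.39, and Myh6 was between 1544 and 1706 FPKM in sham LV and between 2041 and 2787 in VO LV. The part of these markers in the result was not tested. Erythroid markers were between 13332 and 17264 FPKM and between 8642 and 13743, with overlap. With the erythroid covariate 5 members were lower without adjustment, where 4.01% of all genes were, and the median of the members was -0.31.

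VO RV was compared with sham RV for the response of the RV, and the directions were mostly upward. In limma 0 of 34 members were called, where 0.0% of all genes were. Without adjustment, 7 members were higher and 0 lower, where 1.85% and 3.06% of all genes were. Of the 34 members, 31 had a log2 fold change above 0, where 50.6% of all genes did, and the median was 0.30, beside 0.00 over all genes.

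C1qb, the B chain of C1q, had the smallest p of the members. It measured 7.55, 7.94 and 11.4 FPKM in sham RV and 12.4, 16.2 and 16.6 FPKM in VO RV, with means of 8.95 ± 2.11 and 15.1 ± 2.31 FPKM (SD, n = 3). The groups did not overlap, and the log2 fold change was 0.73 (SE 0.15, unadjusted p = 0.000578 in limma, adjusted p = 0.482). The other chains are encoded beside it on chromosome 5, with at most 9246 bases between genes, and so are not independent of it in position.

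C1qa measured 12.5, 6.99 and 10.9 FPKM in sham RV and 10.6, 18.2 and 15.8 in VO RV, with overlapping groups and a log2 fold change of 0.53 (SE 0.22, limma adjusted p = 0.579). C1qc measured 12.1, 9.05 and 11.8 FPKM and 11.6, 16.3 and 17.8, with a log2 fold change of 0.45 (limma adjusted p = 0.588). In both genes VO RV replicate 1 lay within the sham RV range while replicates 2 and 3 lay above it. In the LV, C1qa was at 10.9, 12.7 and 11.9 FPKM in sham and 9.15, 11.2 and 11 in VO, with overlap. Cd68 measured 3.37, 2.21 and 3.85 FPKM in sham RV and 4.06, 6.25 and 6.67 in VO RV, which were separated, with a log2 fold change of 0.76 (SE 0.21, limma adjusted p = 0.536). In the LV, where its groups overlapped, Cd68 was at 4.24, 3.28 and 4.65 FPKM in sham and 4.29, 3.64 and 4.49 in VO.

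Laptm5 in VO RV was at 6.61, 8.22 and 7.83 FPKM, above all 3 sham RV libraries, with a log2 fold change of 0.40 (SE 0.12, limma adjusted p = 0.541). Aif1 at 0.51 and Tyrobp, the signalling adaptor DAP12, at 0.56 were the remaining members past the unadjusted rule. Separation towards higher levels was seen for 6 members, where the background was 5.64%, and towards lower levels for 0, where it was 6.87%. Complement genes had the highest median by role among roles with at least 3 tested genes, at 0.49, followed by shared leukocyte genes at 0.30, general macrophage genes at 0.29 and resident macrophage genes at 0.21.

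These counts leaned on single libraries. Without VO RV replicate 1, 18 members were higher by the unadjusted rule, where 3.55% of all genes were, and the median was 0.47. Without VO RV replicate 2, the library with high atrial and fibroblast markers, 2 members were higher, where 2.66% of genes were, and the median was 0.22. Without replicate 3, 4 were higher, where 1.55% of genes were, and the median was 0.19. Leaving out VO RV replicate 2 and sham RV replicate 1 together left 3 members higher by the unadjusted rule, where 2.11% of genes were, with 27 of 34 above 0. Other marker sums were also higher in VO RV than in sham RV without overlap. Proliferation markers were between 108 and 126 FPKM against between 87.7 and 97.3, T cell markers between 13.6 and 14.7 against between 9.53 and 11.7, and natural killer cell markers between 1.76 and 2.52 against between 1.03 and 1.46. Of 7 mast cell genes tested 3 were higher without adjustment, where 1.85% of all genes were, with a median of 0.55. Of 8 ventricular cardiomyocyte markers 2 were lower, where 3.06% were, with a median of -0.14. Myh6 fell without overlap, from between 2165 and 2355 FPKM in sham RV to between 1718 and 1916 in VO RV. The part of these markers in the result was not tested.

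VO LV was compared with VO RV, and in limma 0 of 34 members were called, where 0.00719% of all genes were. Without adjustment 0 members were higher and 2 were lower in the LV, where 3.85% and 3.56% of genes were. Leaving out 1 library gave 2 to 16 lower, with 16 without VO RV replicate 1, where 5.54% of all genes were lower, and 5 without VO LV replicate 2, where 3.36% were. C1qb measured 8.74, 9.07 and 8.82 FPKM in VO LV, below all 3 VO RV libraries, with a log2 fold change of -0.72 (SE 0.15, limma adjusted p = 0.239). Cd14, the lipopolysaccharide co-receptor, measured 2.48, 2.38 and 2.62 FPKM in VO LV and 3.28, 6.21 and 3.76 in VO RV. It was also separated, with a log2 fold change of -0.67 (SE 0.20, limma adjusted p = 0.291).

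Folr2 measured 3.58, 3.36 and 2.90 FPKM in VO LV and 4.03, 5.28 and 3.78 in VO RV, without overlap and with a log2 fold change of -0.36 (SE 0.14, limma adjusted p = 0.385). In the sham groups, which overlapped for both genes, Cd14 was at 3.03, 3.34 and 2.81 FPKM in the LV and 3.82, 2.53 and 2.89 in the RV, and Folr2 at 3.63, 3.44 and 4.25 and at 4.27, 4.15 and 4.82. Laptm5 overlapped between these VO groups, with a log2 fold change of -0.27 (limma adjusted p = 0.421). Of the 34 members, 7 were above 0, against 51.0% of all genes. The groups were separated with lower levels in the LV for 4 members and with higher levels for 0, where 7.69% and 8.45% of all genes were. The median of -0.25, beside 0.01 over all genes, became -0.10 without VO RV replicate 2 and -0.40 without VO RV replicate 1. Markers of other cells also differed. Ventricular cardiomyocyte sums were between 20816 and 23155 FPKM in VO LV and between 14765 and 20495 in VO RV, without overlap. Of these 8 markers 3 were higher without adjustment, where 3.85% of all genes were, with a median of 0.31. Of 8 fibroblast markers 6 were lower, where 3.56% were, with a median of -0.55, and their sums overlapped. The part of these markers in the result was not tested.

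The difference between the 2 responses, LV minus RV, was then fitted as an interaction. Laptm5 and C1qb changed differently under VO in the LV and the RV, both downward in the LV relative to the RV. They were 2 of 34 members called, where 4.19% of all genes were called in either direction, 0.733% in this one and 3.46% in the other. For Laptm5 the difference was -0.72 on the log2 scale (SE 0.17, limma adjusted p = 0.0422), from -0.31 in the LV and 0.40 in the RV. C1qb in sham LV was at 11.3, 10.02 and 9.33 FPKM. For C1qb the difference was -0.92 (SE 0.22, limma adjusted p = 0.0440), from -0.19 and 0.73. The deposited table lists Laptm5 (ENSRNOG00000011054) on the plus strand of chromosome 5 from 149047681 to 149069719 and C1qb (ENSRNOG00000012749) on its minus strand from 155246447 to 155252003, on a build that is not stated.

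Neither gene passed the adjusted test within the LV or within the RV, so the calls concern the contrast of the responses alone. Since sham levels enter the difference with opposite sign, a higher level in sham LV than in sham RV lowers the value here, without fixing its sign. For Laptm5 the sham difference was 0.44 and the VO difference -0.27, and for C1qb they were 0.20 and -0.72.

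The next members were Aif1, at -1.01 (SE 0.30, limma adjusted p = 0.0725), and Ctss, at -0.91 (SE 0.29, limma adjusted p = 0.0876). Aif1 had 2.32, 2.43 and 2.96 FPKM in sham RV and 2.58, 3.97 and 5.51 in VO RV, and Ctss had 4.89, 6.05 and 4.76 FPKM and 4.14, 8.39 and 7.07. Both overlapped between the RV groups, and in both VO RV replicate 1 was the lowest of its group.

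Without adjustment 14 members were lower and 0 higher, where 9.94% and 13.1% of all genes were. The count of 14 became 21 without VO RV replicate 1 (11.1% of all genes lower), 9 without VO LV replicate 1 (9.0%), 8 without sham LV replicate 1 (9.32%), VO LV replicate 3 (6.88%) or VO RV replicate 2 (12.3%), and 7 without VO RV replicate 3 (6.44%). The difference was above 0 for 1 of 34 members, Cd74 at 0.10, where it was so for 46.4% of all genes, and the median was -0.51 beside -0.04. Medians by role were -0.68 for general macrophage genes, -0.61 for shared leukocyte genes, -0.60 for complement genes and -0.35 for resident macrophage genes. Of 12 fits that left out 1 library, 9 gave 0 calls, among them those without any 1 of the VO LV libraries. Leaving out sham LV replicate 3 or sham RV replicate 3 gave 1 call each, where 5.54% and 4.05% of all genes were called, and leaving out VO RV replicate 1 gave 5, where 7.22% of all genes were called, and a median of -0.70. There were also 0 calls without sham RV replicate 1 and VO RV replicate 2 together and with the Y-linked or the erythroid covariate. The same held with the replicate number as a fixed block or same-numbered LV and RV as a random block. Of 8 ventricular cardiomyocyte markers, 3 were called for this difference in the direction opposite to the members, the myosin heavy chains Myh6 at 0.89 (limma adjusted p = 0.0319) and Myh7 at 1.18 (limma adjusted p = 0.0249), and the calcium release channel Ryr2 at 1.61 (limma adjusted p = 0.0249). These calls were also lost without sham LV replicate 1, where 0 genes in all were called. The part of these markers in the result was not tested.

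**Figure D3:**
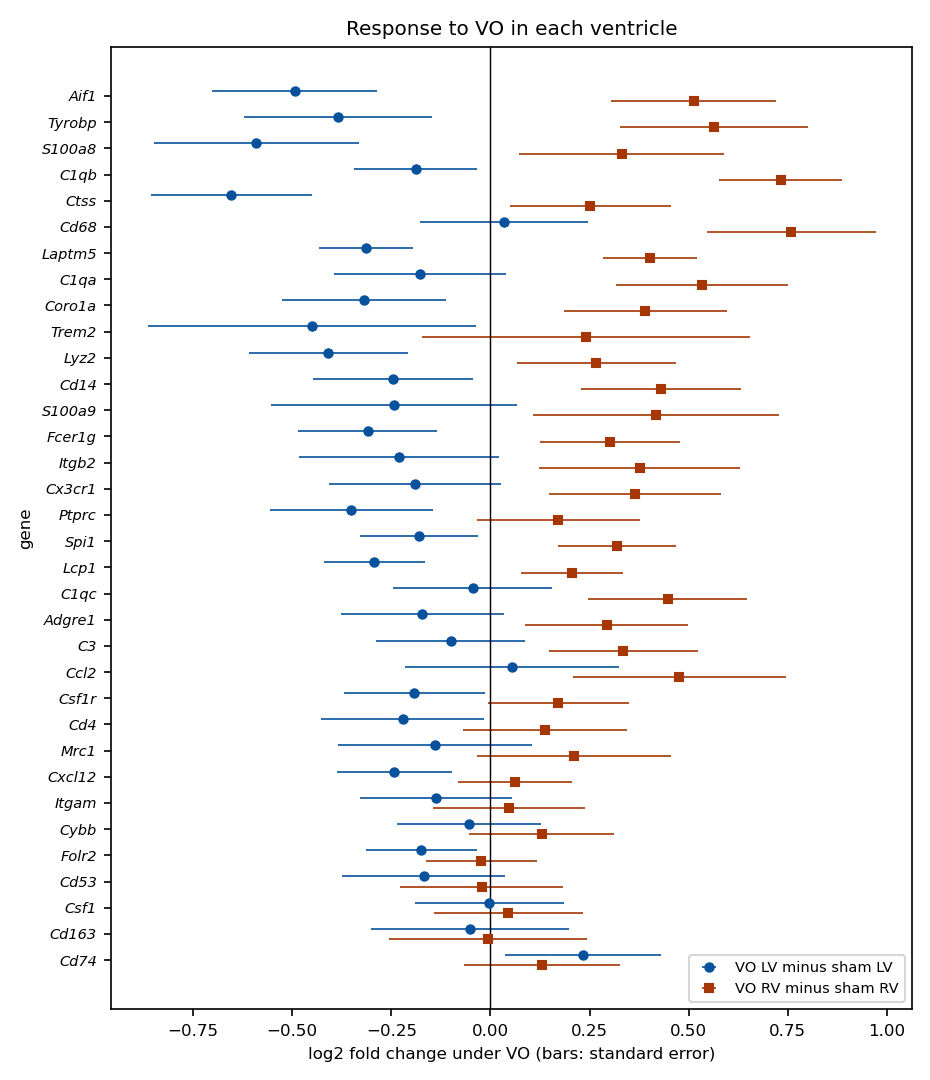
Log2 fold change under VO of each tested member, 1 row per gene, against the sham group of its own ventricle, with circles for the LV and squares for the RV, bars for the standard error, and genes ordered by the difference between the responses. Of 34 members, 3 LV responses and 31 RV responses lie above 0.

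The promoters of the called genes are shown because PU.1, itself a member (Spi1), binds purine-rich DNA with the core GGAAGT at many macrophage genes. RefSeq promoters on GRCr8 were matched for 25 of 37 members, taking the 250 bases before each start. Each is given 5′ to 3′ on the strand of the gene, with the core or its reverse complement ACTTCC in capitals. C1qa is added as the partner chain of C1qb.
Laptm5, chr5:148371630-148371879, plus strand: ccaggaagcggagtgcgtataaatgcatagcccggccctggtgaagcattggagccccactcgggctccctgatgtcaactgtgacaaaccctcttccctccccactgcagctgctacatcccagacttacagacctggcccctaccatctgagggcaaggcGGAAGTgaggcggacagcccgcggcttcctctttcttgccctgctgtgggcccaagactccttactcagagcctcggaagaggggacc
C1qb, chr5:154407828-154408077, minus strand: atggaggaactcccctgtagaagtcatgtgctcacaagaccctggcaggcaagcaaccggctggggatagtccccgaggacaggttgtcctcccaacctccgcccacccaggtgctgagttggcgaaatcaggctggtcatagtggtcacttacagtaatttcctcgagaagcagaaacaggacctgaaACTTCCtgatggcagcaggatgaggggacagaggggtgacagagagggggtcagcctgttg
C1qa, chr5:154419934-154420183, minus strand: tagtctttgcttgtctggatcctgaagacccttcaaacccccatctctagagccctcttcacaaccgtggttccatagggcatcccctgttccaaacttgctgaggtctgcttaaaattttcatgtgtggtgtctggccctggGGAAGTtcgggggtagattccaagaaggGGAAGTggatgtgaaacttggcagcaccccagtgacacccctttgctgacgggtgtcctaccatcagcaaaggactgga
Coro1a, chr1:190731104-190731353, minus strand: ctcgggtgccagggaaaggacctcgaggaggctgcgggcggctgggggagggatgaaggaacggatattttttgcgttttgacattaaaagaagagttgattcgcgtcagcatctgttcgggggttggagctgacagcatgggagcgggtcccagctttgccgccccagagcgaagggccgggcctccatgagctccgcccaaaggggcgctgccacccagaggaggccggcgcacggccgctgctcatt

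Laptm5 and C1qb held 1 core each, C1qa held 2 and Coro1a held 0. The core was present on either strand in 12 of the 25 matched members and in 19.2% of 33469 RefSeq promoters of this length. The longer form GAGGAAGT, with its reverse complement ACTTCCTC and the shorter core inside it, was present in 2 of 25 members, Cd53 and Ctss, and in 2.04% of all promoters. These are matches of letters, and binding was not measured. S100a8 and Lcp1 were without a matched promoter. Spi1 itself measured 3.06, 3.37 and 3.03 FPKM in sham LV, 2.75, 3.38 and 2.13 in VO LV, 2.54, 2.60 and 2.14 in sham RV and 2.85, 3.24 and 3.35 in VO RV. For Spi1 the RV groups did not overlap, at a log2 fold change of 0.32 (limma adjusted p = 0.594).

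Genes outside the set but of the same cells were read from lists. Of 85 further macrophage and monocyte genes 65 were tested, and without adjustment 10 were higher and 0 lower in sham LV against sham RV, where 8.19% and 9.63% of all genes were. The counts were 2 and 8 in VO LV against sham LV (9.27% and 6.44% of all genes), 7 and 0 in VO RV against sham RV (1.85% and 3.06%) and 3 and 5 in VO LV against VO RV (3.85% and 3.56%). Their medians were 0.28, -0.14, 0.17 and -0.11. Ncf4, a cytosolic subunit of the phagocyte NADPH oxidase, was called in the sham comparison, at 1.96, 1.94 and 2.32 FPKM in the LV and 0.890, 0.989 and 0.765 in the RV (log2 fold change 0.89, SE 0.21, limma adjusted p = 0.0432). It was also called for the difference of responses, at -1.20 (SE 0.29, limma adjusted p = 0.0475), with 0.951, 1.93 and 1.14 FPKM in VO LV and 1.39, 2.12 and 1.71 in VO RV. Over all genes, 0 were called in the sham comparison without sham RV replicate 1, and 0 for the difference without sham LV replicate 1. The calls of Ncf4 and of the list genes below were therefore lost in these fits.

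Ccl12, a monocyte chemokine, was called for the difference as well, at -1.85 (SE 0.41, limma adjusted p = 0.0369). It measured 1.44, 1.55 and 2.13 FPKM in sham LV, 0.913, 0.267 and 0.173 in VO LV, 0.894, 0.520 and 0.398 in sham RV and 1.19, 0.906 and 1.26 in VO RV, so both ventricles were separated from their sham group and in opposite directions. Cxcr4, the receptor of Cxcl12, was higher in sham LV (19.0, 28.2 and 22.0 FPKM) than in sham RV (14.5, 14.0 and 12.9), at 0.71 (SE 0.15, limma adjusted p = 0.0364). Cxcl12 in VO LV was at 30.3, 30.5 and 28.9 FPKM and in VO RV at 26.6, 26.9 and 32.1. In sham LV and sham RV it was at 30.2, 37.8 and 39.3 FPKM and 22.9, 26.1 and 33.9, overlapping, with a log2 fold change of 0.37 (limma adjusted p = 0.137).

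Kitlg, the stem cell factor that sustains mast cells, was higher in sham LV at 0.58 (limma adjusted p = 0.0319), and Masp1, a protease of the lectin complement pathway, was lower at -0.74 (limma adjusted p = 0.0332). Of 26 further complement genes 17 were tested, 7 had a log2 fold change above 0 in this comparison, and the median was -0.14. The C1q chains overlapped between the sham groups, at 0.07 to 0.25, and were not called. Cd79a, a chain of the B cell receptor, was higher in sham LV at 1.06 (limma adjusted p = 0.0387), from 1.03, 1.52 and 1.28 FPKM against 0.359, 0.278 and 0.399. Lymphocyte genes were otherwise sparse, with 4 of 16 T cell, 3 of 10 B cell and 1 of 10 natural killer cell genes tested.

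**Figure D4:**
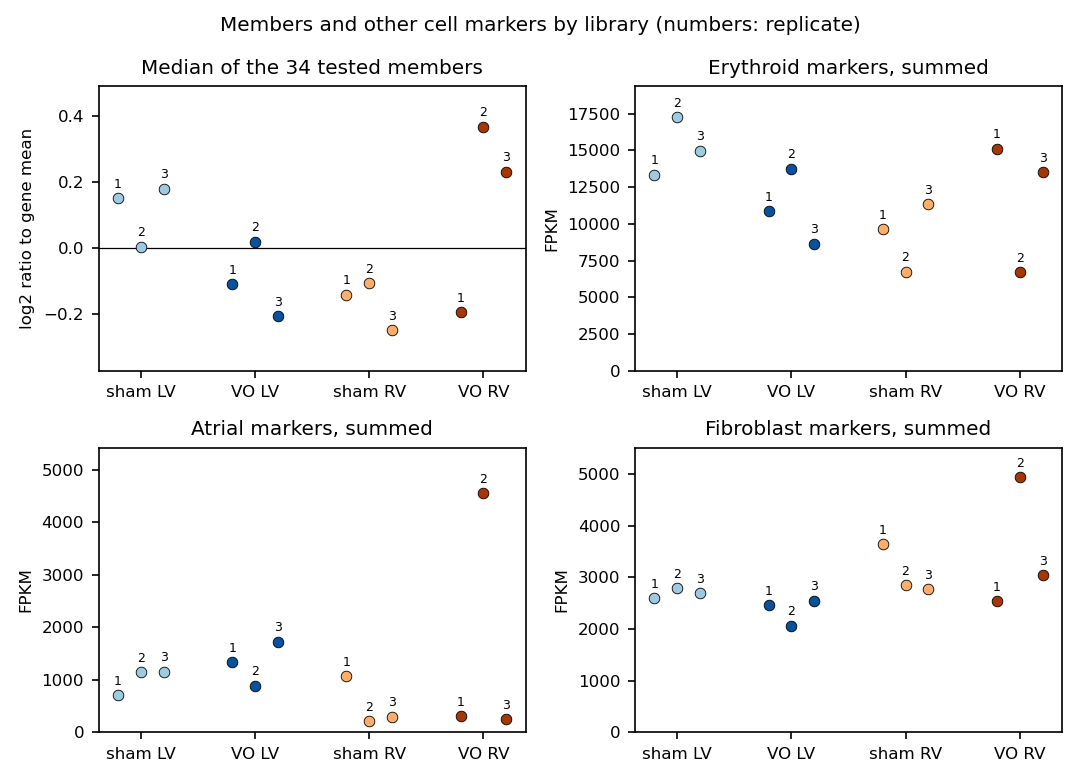
Values of each library by group (points numbered by replicate), as the median log2 ratio of the 34 tested members to their means and as the summed levels in FPKM of erythroid, atrial and fibroblast markers. VO RV replicate 2 is highest in the atrial sum, the fibroblast sum and the median of the members (0.37).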

How the data were processed

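Poly(A) RNA was sequenced from 12 libraries, 3 in each of 4 groups taken from the labels. Per the labels, the submitters' processing notes name HISAT2 2.0.5, StringTie 1.3.3b, featureCounts 1.5.0-p3, DESeq2 1.20.0 and GATK 3.7. The genome build and the strand setting are not given in the sources used here. The authors deposited FPKM, fragments scaled to gene length and library size, for 32545 genes, made from counts of aligned paired-end reads with a scaling of the libraries that the sources do not describe.

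From these values, FPKM were divided by median-ratio size factors between 1.00 and 1.01 and tested as log2(FPKM + 0.5) with limma 3.58.1 (R 4.3.3, trended variance) in 1 model of 4 groups, for 13910 genes with mean FPKM of at least 0.5. Fold changes on this scale understate those of low genes. A call needed a Benjamini-Hochberg adjusted p under 0.05 over all genes tested and a fold change over 1.3. Members were also tested with exact two-sided permutation. Levels are mean ± SD. Reads were recovered as whole multiples of the value of 1 read, within 0.02 for 100% of values under 200 reads, giving 14121713 to 16871371 reads per library. Alternatives changed the scaling, pseudocount, filter, variance model, covariates and libraries. The script was tested on simulated counts with a fixed spread for all genes, which can differ from that of the data. It called 7 of 69 genes changed 1.5-fold, 55 of 68 changed 2-fold and 61 of 63 changed 4-fold, with 5 false calls. Most changes of 1.5-fold were thus missed in the simulation.

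All members are described by role. The values of every library are given for called members, for the 4 members with the smallest p in each comparison, and for the 3 members of highest level, and ranges for the 3 of lowest level. Called genes of other lists are also named. Values of single libraries for Spi1, C1qc, S100a9, Trem2, Mrc1 and Cd163 were added after their values were seen. The members and lists were chosen with earlier results of these data known. Positions of promoters come from RefSeq on GRCr8 and are not those of the deposited table.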

Additional observations from a re-analysis of the deposited data

Results flagged for a closer look

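The response to VO differed between the ventricles, by the interaction term in limma, for 2 members. For C1qb the LV response minus the RV response was -0.92 on the log2 scale (adjusted p = 0.0440). For Laptm5 it was -0.72 (adjusted p = 0.0422). Leaving out 1 library at a time gave adjusted p from 0.0216 to 0.116 for C1qb and from 0.0235 to 0.117 for Laptm5, and differences from -1.10 to -0.81 and from -0.81 to -0.65. The call held in 3 of 12 of these fits for C1qb and in 1 of 12 for Laptm5. Without sham RV replicate 1 and VO RV replicate 2 together, the differences were -0.75 (adjusted p = 0.116) and -0.67 (adjusted p = 0.101). Neither gene was called with the replicate number as a fixed block or same-numbered LV and RV as a random block.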

How the results depend on the processing

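The medians over the members and the 20 single results refitted, those with the smallest p in each comparison, kept their sign under the alternatives run, while other members with values near 0 did not all do so, and the calls sat at the edge of the threshold. In sham LV against sham RV, 3 members were called, and 0 with all genes above 0 tested, without sham RV replicate 1 and VO RV replicate 2 together, and with the erythroid covariate, which was chosen after seeing the data. Array weights gave 5, and the unadjusted rule 10. Leaving out 1 library gave 0 to 4, with 0 in 8 of 12 cases. For the difference of responses, 2 were called, and 0 with all genes above 0 tested, with the Y-linked covariate, without those 2 libraries together and with the erythroid covariate. The unadjusted rule gave 14, and leaving out 1 library 0 to 5, with 0 in 9 of 12 cases. In VO LV against sham LV, 0 were called, against 1 with array weights, 3 by the unadjusted rule and 0 to 1 with 1 library left out, the 1 being Ctss without VO RV replicate 1. In VO RV against sham RV and VO LV against VO RV, 0 were called, against 7 and 2 by the unadjusted rule. With 1 library left out, the medians ran from 0.19 to 0.47 for VO RV against sham RV and from -0.70 to -0.42 for the difference. For the 5 single results called, the call was lost in 75 of 150 refits under the alternatives, and for the 15 not called it was gained in 19 of 450.

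Over all genes, the sham comparison gave 537 calls, and 8 with all genes above 0, 314 with only the groups compared, 1321 with array weights, 0 with the erythroid covariate, 818 with the atrial covariate (also chosen after seeing the data) and 9 without the 2 libraries. The difference gave 583, and in the same order 21, 583, 1047, 0, 1258 and 2, with 203 under the Y-linked covariate. VO LV against sham LV gave 13, and in that order 5, 119, 704, 0, 332 and 2, with 183 at a mean FPKM of at least 1, 56 at a pseudocount of 0.1, 0 under the Y-linked covariate and 339 with voom on recovered reads, which called 684 in the sham comparison and 804 for the difference. In VO RV against sham RV and VO LV against VO RV, the adjusted counts stayed between 0 and 2 in these fits. With 1 library left out, counts over all genes ran from 0 to 872 in the sham comparison, 0 to 1004 for the difference, 0 to 555 in VO LV against sham LV, 0 to 1 in VO RV against sham RV and 1 to 48 in VO LV against VO RV.

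Replicate numbers are shared by the groups, and whether same-numbered LV and RV libraries came from 1 animal is not stated. Deviations of the 6 same-numbered LV and RV pairs of 1 treatment correlated at -0.22 to 0.12. In Y-linked expression 1 of these 6 pairs differed, VO replicate 3. The other pairs agreed, which does not decide whether they came from 1 animal. With the replicate number as a fixed block or same-numbered LV and RV as a random block, 0 members were called in the sham comparison and 0 for the difference, and over all genes 3 and 106 in the first, 1 and 246 in the second, and 3 and 188 in VO LV against sham LV. The depth limits Cd3e, Fcgr2b and Ccr2, which were tested only in the fit of all genes above 0.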
